A study of Rattus norvegicus with 16 samples.

Results

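A set of 8 genes used as markers of glomerular parietal epithelial cells and of their activation (Cldn1, Cd44, Pax2, Pax8, Cd9, Cd24, Prom1 and Vcam1) was followed across glomeruli of rats with puromycin aminonucleoside nephrosis. They were chosen by name, and all 8 were listed among the 13222 genes of the deposited expression table. The libraries came from 16 male Wistar rats of about 175 g, in 4 groups of 4. Healthy controls were compared with rats given puromycin aminonucleoside (PAN) by vein, with rats given PAN and daily oral pioglitazone, and with rats given PAN and daily oral GQ-16. Both drugs are PPARγ agonists, and the labels name a vehicle gavage without saying which group received it. The kidneys were taken on day 11 and passed through sieves to collect glomeruli, and poly(A) RNA went into stranded libraries. The labels give no dose, age, batch or pairing of rats, so the replicate numbers below only name rats within a group. Each library is labelled as its own sample, and nothing in the labels states whether any pooled several animals.

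Parietal epithelial cells line the inner wall of Bowman's capsule, facing the podocytes across the urinary space. They carry the tight junction protein claudin-1 and keep the nephron transcription factors Pax2 and Pax8. After podocyte injury they can acquire the hyaluronan receptor CD44, migrate onto the tuft and lay down matrix. CD9, a tetraspanin, has been tied to that migration. CD24, prominin-1 (CD133) and VCAM-1 are used to mark progenitor-like parietal and tubular cells. All of these genes are also expressed by other cells: CD44 by leukocytes, VCAM-1 by activated endothelium, Pax8 and prominin-1 by tubules, and CD9 by podocytes and many other cell types. In bulk glomeruli, a change in the number of cells of a type and a change in RNA per cell cannot be told apart.

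Libraries held 13351137 to 21977663 counted reads, so 3 reads corresponded to 0.137 to 0.225 CPM (reads of a gene scaled to a common library total). Members were well above that, with between 60 reads (Pax2) and 9102 reads (Cd9) in a library. The share of reads on 21 mitochondrial genes was 26.3 ± 11.8% in controls (SD, n = 4), 9.24 ± 2.20% in PAN rats, 14.3 ± 4.57% with pioglitazone and 16.4 ± 11.2% with GQ-16. Controls 2 and 3 had 39.6% and 32.6%. Sample titles carry a number, and 3 of 4 PAN libraries had a number of 25 or above against none of the 4 controls. With pioglitazone and with GQ-16, 1 library each had such a number. What these numbers stand for is not given in the sources used here. On the deposited scale the median of all genes was 0.28 higher in PAN rats than in controls (log2). Median-ratio scaling, which sets each library by its median gene, moved that median to -0.003, and its values are given for each member in PAN rats against controls. Sieved glomeruli were described by podocyte and proximal tubule markers. All 10 podocyte markers were listed, and their summed level was 2795 to 9870 CPM in controls and 7781 to 11418 CPM in PAN rats. Proximal tubule markers summed to 5803 to 11528 CPM in controls and 3313 to 13062 CPM in PAN rats. Their sum was above the podocyte sum in every control and in PAN rat 4, and below it in the other PAN rats. The preparations thus also held tubule RNA.

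PAN against control was the comparison in which members changed. Cd44, Cd9 and Vcam1 rose, and Cldn1, Pax2, Pax8, Cd24 and Prom1 did not pass the test. The rise was about the same for Cd44 and Vcam1 (0.90 each on the log2(CPM + 1) scale) and 1.28 for Cd9. These 3 of 8 higher calls compare with 21.7% of all genes called higher in the same limma fit (adjusted p under 0.05, Benjamini-Hochberg over 13222 genes). None of the 8 was called lower, against 0.522% of all genes. The members' median change was 0.22, against 0.28 over all genes. With median-ratio scaling 0 of 8 were called, against 8.63% of all genes in either direction. All 3 calls were also lost with a title number of 25 or above as a covariate (Cd44 0.54, Cd9 0.68, Vcam1 0.48) and with the mitochondrial share as one (0.66, 0.22 and 0.41). In the libraries numbered 15 or lower, which hold all controls and PAN rat 4 alone, the changes were 0.141, 0.998 and 0.557, and that lone rat is assumed to vary like the other groups.

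Cd44 encodes the main cell surface receptor for hyaluronan. Its level was 10.1, 7.19, 8.13 and 9.29 CPM in the 4 controls and 33.4, 17.8, 13.9 and 9.59 CPM in the 4 PAN rats. PAN rat 1 was highest and PAN rat 4 lay inside the control range, so the groups overlapped, with 3 of 4 PAN rats above all controls. The change was 0.90 (SE 0.259, adjusted p = 0.0261, limma), and an exact two-sided permutation test on the 8 rats gave p = 0.0571. With median-ratio scaling it was 0.62 (limma, adjusted p = 0.125). In a fit of only these 2 groups the limma adjusted p was 0.0717. Without PAN rat 1 it was 0.58 (limma, adjusted p = 0.0746), without PAN rat 2 the adjusted p was 0.0625, without control 2 it was 0.0945 and without control 3 it was 0.0805.

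Vcam1 encodes the adhesion molecule that binds the integrin α4β1 on leukocytes. Controls had 26.6, 18.5, 18.3 and 27.7 CPM, and PAN rats had 74.1, 35.1, 37.8 and 33.4 CPM. The groups did not overlap, as was the case for 22.4% of all genes in the higher direction, and PAN rat 1 stood well above the other 3. The change was 0.90 (SE 0.281, adjusted p = 0.0344, limma). The exact two-sided permutation p was 0.0286, the smallest that 4 against 4 allows. With median-ratio scaling it was 0.61 (limma, adjusted p = 0.144). Without PAN rat 1 it was 0.64 (limma, adjusted p = 0.120), and the call was also lost without PAN rat 2 (0.0535), PAN rat 3 (0.0511), control 2 (0.119) or control 3 (0.115), all adjusted p from limma.

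Cd9 encodes a tetraspanin that organises integrins and growth factor ligands in the membrane. Its level was 267, 95.4, 98.3 and 152 CPM in controls and 482, 345, 289 and 280 CPM in PAN rats. Control 1, at 267 CPM, came close to the lowest PAN rat, but the groups did not overlap. The change was 1.28 (SE 0.370, adjusted p = 0.0263, limma), with an exact two-sided permutation p of 0.0286. With median-ratio scaling it was 0.98 (limma, adjusted p = 0.0569). The limma adjusted p was 0.0885 without PAN rat 1, 0.0597 without PAN rat 2, 0.105 without control 2 and 0.0977 without control 3. Controls 2 and 3, the lowest for Cd9, also had the lowest podocyte marker sums (2795 and 2802 CPM) and the highest mitochondrial shares. With the podocyte marker mean as a covariate the Cd9 change was 0.32 (adjusted p = 0.338), and with the mitochondrial share as a covariate it was 0.22 (limma, adjusted p = 0.700).

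The upstream sequences of Vcam1 and Cd9, the members whose PAN and control rats did not overlap, are shown because they differ in the motifs they hold. The 250 bases before each start site were read from RefSeq on build GRCr8, which differs from the build of the counts (Rnor_6.0). All 8 members matched the promoter table, with 9 entries since Prom1 had 2. Vcam1 lies on the minus strand at chr2:206742784-206743033 and Cd9 on the minus strand at chr4:159975359-159975608. Capitals mark letters found by the motif search.
Vcam1: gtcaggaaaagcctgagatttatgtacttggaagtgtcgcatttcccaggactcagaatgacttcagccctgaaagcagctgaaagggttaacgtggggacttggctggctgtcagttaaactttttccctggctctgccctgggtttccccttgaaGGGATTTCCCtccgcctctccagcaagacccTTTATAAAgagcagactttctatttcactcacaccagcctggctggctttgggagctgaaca
Cd9: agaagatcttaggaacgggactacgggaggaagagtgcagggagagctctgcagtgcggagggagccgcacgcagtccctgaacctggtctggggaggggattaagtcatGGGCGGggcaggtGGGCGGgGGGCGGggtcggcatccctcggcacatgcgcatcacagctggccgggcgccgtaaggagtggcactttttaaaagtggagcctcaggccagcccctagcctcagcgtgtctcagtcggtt
The search covered both strands of the 300 bases from 250 before to 50 after each start. The NF-κB type motif, spelled GGG, 2 free bases, TT, 1 free base and CC, stood in 5.0% of 33469 promoters and in 1 member entry, that of Vcam1, where the match GGGATTTCCC began 93 bases before the start. Vcam1 was also the 1 member entry with TATAAA (14.2% of all promoters), matched on both strands in the overlapping stretch TTTATAAA. GGGCGG, the core letters of an Sp1 site, stood in 33.1% of promoters and in 6 of 9 member entries, with 3 copies in Cd9. The PPAR/RXR type motif, spelled AGGTCA, 1 free base and AGGTCA, stood in 0.0538% of promoters and in 0 of the 9. CATTCC (14.2% of promoters) was in 0 of the 9, and CACGTG (6.42%) in 1, that of Vcam1. These matches describe letters and show no binding.

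**Figure D1:**
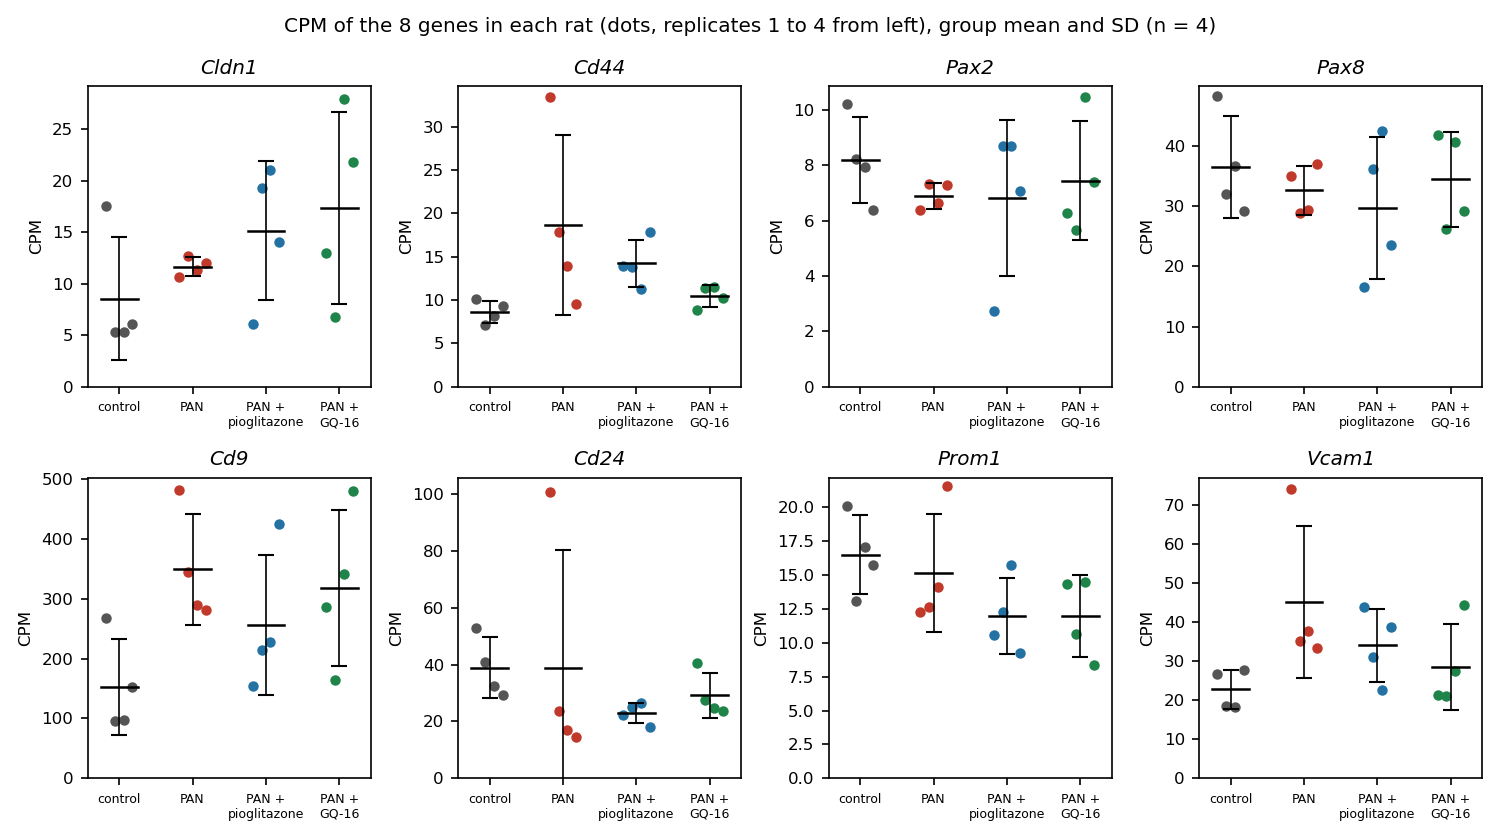
Level of each of the 8 members in CPM (linear axis from 0), by group; dots are rats, bars the mean and SD of 4 rats. The Cd24 PAN bar, 38.9 ± 41.3 CPM, runs below 0 and is drawn only down to the axis. Vcam1 and Cd9 show PAN rats above every control, while Cd24 shows a single PAN rat at 101 CPM.

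Cldn1, which encodes the tight junction claudin of the parietal cell border, gave 17.5, 5.29, 5.34 and 6.05 CPM in controls and 10.6, 12.7, 11.3 and 12.0 CPM in PAN rats. Control 1 was higher than every PAN rat, and the other 3 controls were lower than every PAN rat. The change was 0.57, with a 95% interval from -0.33 to 1.47 (limma, adjusted p = 0.301), and 0.31 with median-ratio scaling. Without control 1 it was 0.95 (limma, adjusted p = 0.0685). It was -0.40 with the podocyte marker mean as a covariate and -0.46 with the mitochondrial share as one. Its spread was smallest in PAN rats, at an SD of 0.902 CPM against 5.99 CPM in controls.

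Pax2 and Pax8 encode paired-box factors that specify nephron epithelium. Pax2 had 10.2, 8.24, 7.94 and 6.39 CPM in controls and 6.38, 7.32, 6.64 and 7.28 CPM in PAN rats. Pax8 had 48.3, 31.9, 36.7 and 29.1 CPM in controls and 35.0, 28.8, 29.4 and 37.0 CPM in PAN rats. Both overlapped between the groups. The changes were -0.20 for Pax2 (95% interval from -0.75 to 0.34, adjusted p = 0.543) and -0.14 for Pax8 (from -0.66 to 0.38, adjusted p = 0.661), both limma. With median-ratio scaling they were -0.47 and -0.44, still without passing the test.

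Cd24 encodes a small glycosylated surface protein. Reads from its near-identical genomic copies in rodents may be shared, and how such reads were counted is not given in the sources used here. Controls had 53.0, 41.1, 32.5 and 29.2 CPM, and PAN rats had 101, 23.8, 16.8 and 14.5 CPM. PAN rat 1 was above all controls and the other 3 PAN rats were below all of them. The group means in CPM were equal at 38.9, while the change on the log2 scale was -0.43 (limma, adjusted p = 0.438), and -0.72 with median-ratio scaling (limma, adjusted p = 0.290). Without PAN rat 1 it was -1.03 (adjusted p = 0.0131, limma), and Cd24 was then the only member called, where 7.93% of all genes were called and 0.159% were called lower. Without both PAN rat 1 and control 1 it was -0.88 (adjusted p = 0.0169), and -1.21 with median-ratio scaling (limma, adjusted p = 0.0189). These last 2 values come from alternatives chosen after seeing the data.

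Prom1 encodes prominin-1, a pentaspan protein of membrane protrusions. Controls had 20.1, 13.1, 17.0 and 15.8 CPM, and PAN rats had 12.3, 12.6, 14.1 and 21.5 CPM. PAN rat 4 was highest of the 8 and the groups overlapped. The change was -0.14, with a 95% interval from -0.58 to 0.31 (limma, adjusted p = 0.623). It was -0.42 with median-ratio scaling, -0.52 with quantile normalization and -0.46 with voom, and 0.24 with the tubule marker mean as a covariate, none of which passed.

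Some rats were the highest or lowest of their group for several members. Control 1 was the highest control for 7 of 8 members on the deposited scale and for 3 with median-ratio scaling. PAN rat 1 was the highest PAN rat for 4 members (Cd44, Cd9, Cd24 and Vcam1) and the lowest for 3. PAN rat 4 was the highest for 2 and the lowest for 4, and pioglitazone rat 3 the highest for 4 and the lowest for 2. GQ-16 rat 2 was the lowest for 5, and for 2 with median-ratio scaling. With that scaling PAN rat 4 was the highest for 3 and the lowest for 3. Control 4 was the lowest control for 3, and for 6 with median-ratio scaling. PAN rat 1 had the highest leukocyte marker sum of all 16 libraries (856 CPM), where PAN rats ranged from 300 to 856 CPM and controls from 254 to 355 CPM. With control 1 and PAN rat 1 left out, Cd44 (0.65, adjusted p = 0.0404) and Cd9 (1.42, adjusted p = 0.0183) passed limma's test and Vcam1 (0.72, adjusted p = 0.0709) did not, with 20.4% of all genes called. With median-ratio scaling as well, Cd9 passed (1.08, adjusted p = 0.0459), while Cd44 (0.34, adjusted p = 0.327) and Vcam1 (0.39, adjusted p = 0.382) did not, with 7.31% of all genes called.

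**Figure D2:**
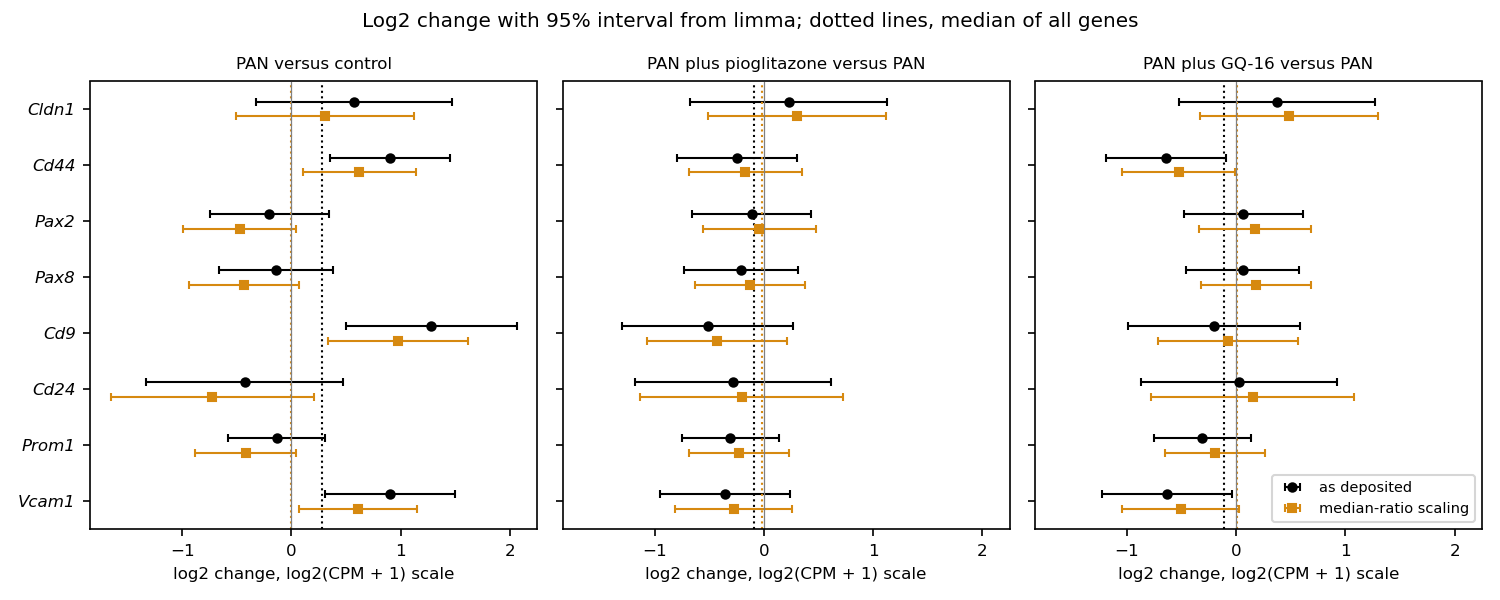
Change of each member in the comparisons, on the log2(CPM + 1) scale with its 95% interval from limma, on the deposited and the median-ratio scale. Cd44, Cd9 and Vcam1 lie to the positive side for PAN against control (0.90, 1.28 and 0.90), and for the drug groups against PAN the deposited-scale intervals include 0 for all members except Cd44 and Vcam1 with GQ-16, which failed the adjusted test. Dotted lines mark the median of all genes.

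No member passed the test for either drug against PAN alone. With pioglitazone 0 of 8 passed limma's test, as did 0% of all genes, of which 495 had an unadjusted p under 0.05. With GQ-16 0 of 8 passed, against 0.0151% of all genes, of which 1094 had an unadjusted p under 0.05. Both comparisons share the PAN rats, PAN rat 1 included. Pioglitazone changes were negative for 7 of 8 members, with a median of -0.27 against -0.09 over all genes, of which 72.6% were negative. With GQ-16, 4 of 8 were negative, against 79.3% of all genes, with a median of -0.09 against -0.11. With median-ratio scaling 0 of 8 passed in either comparison. With GQ-16 the change of Cd9 was then -0.07, that of Prom1 -0.19, and those of Pax2, Pax8 and Cd24 were 0.17, 0.18 and 0.15. Cd44 was -0.52, Vcam1 -0.51 and Cldn1 0.48 in the same fit.

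Cd44 in the pioglitazone group was 13.95, 13.87, 11.24 and 17.91 CPM, a change of -0.25 from PAN (95% interval from -0.80 to 0.30, limma adjusted p = 0.916). In the GQ-16 group it was 8.84, 11.3, 11.5 and 10.2 CPM, and the change was -0.65 (from -1.19 to -0.10, limma adjusted p = 0.528). All 4 GQ-16 values lay below PAN rats 1, 2 and 3, and 1 of them lay below PAN rat 4. With median-ratio scaling GQ-16 rat 2 (13.25 CPM) lay above PAN rat 3 (12.83 CPM). Group means ran from PAN (18.7 ± 10.4 CPM, SD, n = 4) through pioglitazone (14.2 ± 2.75) and GQ-16 (10.5 ± 1.24) to control (8.67 ± 1.27), and neighbours in that order overlapped.

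Vcam1 gave the same order of means, with 45.1 ± 19.4 CPM in PAN rats, 34.0 ± 9.30 with pioglitazone, 28.5 ± 11.0 with GQ-16 and 22.8 ± 5.06 in controls (SD, n = 4). The pioglitazone rats had 43.8, 31.1, 22.5 and 38.7 CPM and the GQ-16 rats 21.2, 20.9, 27.4 and 44.3 CPM. With GQ-16, 3 of 4 rats were below every PAN rat and rat 4 was above 3 of them. The changes from PAN were -0.36 with pioglitazone (limma, adjusted p = 0.916) and -0.63 with GQ-16 (limma, adjusted p = 0.580). Vcam1 and Cd44 were the 2 members with an unadjusted p under 0.05 in the GQ-16 comparison, against 8.27% of all genes. With median-ratio scaling the unadjusted limma p was 0.0614 for Vcam1 and 0.0469 for Cd44.

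Cd9 was 155, 214, 229 and 424 CPM with pioglitazone and 287, 164, 341 and 480 CPM with GQ-16. Rat 4 was the highest in both drug groups, and both groups overlapped with PAN rats. The changes from PAN were -0.51 (95% interval from -1.30 to 0.27) and -0.20 (from -0.98 to 0.58), with limma adjusted p of 0.916 and 0.931. Podocyte marker sums were 4994 to 12830 CPM with pioglitazone and 4604 to 15729 CPM with GQ-16. Means of Cd9 were 349 ± 93.1 CPM in PAN rats, 318 ± 131 with GQ-16, 255 ± 117 with pioglitazone and 153 ± 80.3 in controls.

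Cldn1 was 6.07, 19.3, 21.1 and 14.1 CPM with pioglitazone and 12.9, 6.78, 27.9 and 21.8 CPM with GQ-16. In each drug group 3 of 4 rats were above every PAN rat and 1 was below. The changes from PAN were 0.23 and 0.37 (limma, adjusted p = 0.931 and 0.863). Cldn1 was the only member with a higher mean in both drug groups (15.1 ± 6.73 and 17.4 ± 9.36 CPM) than in PAN rats (11.7 ± 0.902) and controls (8.55 ± 5.99). All neighbours in that order overlapped.

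The other 4 members had limma adjusted p of 0.738 or above against PAN in both drug groups. Pax2 was 2.75, 8.72, 8.70 and 7.09 CPM with pioglitazone and 6.27, 5.65, 10.5 and 7.38 CPM with GQ-16. Pax8 was 16.6, 36.1, 42.4 and 23.5 CPM with pioglitazone and 41.8, 26.3, 40.6 and 29.1 CPM with GQ-16. Pioglitazone rat 1 was the lowest of all 16 rats for both factors. Cd24 was 22.36, 24.97, 26.36 and 18.18 CPM with pioglitazone and 40.6, 27.4, 24.7 and 23.8 CPM with GQ-16. Prom1 was 10.6, 12.2, 15.7 and 9.27 CPM with pioglitazone and 14.4, 10.7, 14.5 and 8.35 CPM with GQ-16, and its mean was 12.0 CPM in both.

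Set against controls, the drug groups gave no call among the 8 members, against 4.98% of all genes for pioglitazone and 0.151% for GQ-16. With pioglitazone, Cd44 was above every control in all 4 rats (0.65, limma adjusted p = 0.130) and Cd24 was below every control in all 4 (-0.71, limma adjusted p = 0.256). Each gave an exact two-sided permutation p of 0.0286. Such separation held for 13.1% of all genes in the higher and 1.06% in the lower direction. With median-ratio scaling both members were still separated from controls, and 4.67% of all genes then were in the lower direction. With GQ-16, Cd9 was 1.08 (limma, adjusted p = 0.124) and Cldn1 0.94 (limma, adjusted p = 0.191). Without control 1 these were 1.39 (limma, adjusted p = 0.0279) and 1.32 (limma, adjusted p = 0.0445), and both passed, in a fit that called 1572 genes, 11.9% of all, in place of 20. Prom1 was -0.44 with pioglitazone and -0.45 with GQ-16 (limma, adjusted p = 0.178 and 0.209). With median-ratio scaling these were -0.65 and -0.61 (limma, adjusted p = 0.116 and 0.118), and all 4 rats of each drug group were then below every control, as held for 4.67% and 5.5% of all genes in the lower direction. Both comparisons share the controls.

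The 2 drugs could be set against each other only at doses the labels do not state. No member passed the test, and all 8 adjusted p were 0.999 in limma's fit, which also called 0 of 13222 genes (786 at an unadjusted p under 0.05). GQ-16 minus pioglitazone was -0.40 for Cd44 (95% interval from -0.95 to 0.15), -0.28 for Vcam1 (from -0.87 to 0.32) and 0.31 for Cd9 (from -0.47 to 1.10). It was 0.31 for Cd24 (from -0.59 to 1.21), 0.27 for Pax8 (from -0.25 to 0.79), 0.18 for Pax2 (from -0.37 to 0.72), 0.14 for Cldn1 (from -0.75 to 1.04) and -0.01 for Prom1 (from -0.45 to 0.44). With intervals this wide, the drugs were not shown to act alike on these genes.

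Across the 16 rats the members fell into pairs that varied together and pairs that did not. Of 28 pairs, 6 had an adjusted permutation p under 0.05 for Pearson's r, all positive. Values were permuted over all 16 rats regardless of group, so differences between groups count toward these p-values. No share over pairs of all genes was computed. Cd44 and Vcam1 gave r = 0.82 (Spearman's rho 0.74, permutation p = 0.00023, adjusted p = 0.00644), and 0.64 without the 2 rats farthest from the Cd44 median. Pax2 and Pax8 gave r = 0.81 (rho 0.59, adjusted permutation p = 0.00742), and 0.58 without 2 rats, of which pioglitazone rat 1 was the lowest. Cldn1 and Cd9 gave r = 0.72 (rho 0.60, adjusted permutation p = 0.0171), and 0.67 without 2 rats. The other 3 pairs were Cd9 with Vcam1 (r = 0.69, adjusted p = 0.0197), Pax8 with Prom1 (0.67, adjusted p = 0.0277) and Cd44 with Cd9 (0.61, adjusted p = 0.0457), all by permutation. By Spearman's rho, 3 of the 6 (Pax2 with Pax8, Cldn1 with Cd9 and Cd44 with Cd9) had an adjusted permutation p of 0.0808. After each group's mean was subtracted, Cd44 with Vcam1 was 0.67, Pax2 with Pax8 0.79 and Cldn1 with Cd9 0.71. Cd9 with Vcam1 was then 0.59, Pax8 with Prom1 0.70 and Cd44 with Cd9 0.47. Within the 11 libraries numbered 15 or lower, Cd44 with Vcam1 gave 0.71, Pax2 with Pax8 0.89 and Cldn1 with Cd9 0.86. In those libraries Cd9 with Vcam1 gave 0.36 and Cd44 with Cd9 0.41. The 5 libraries with higher numbers are too few for a value. With median-ratio scaling Cd44 with Vcam1 was 0.73, Pax2 with Pax8 0.83, Cldn1 with Cd9 0.60, Cd9 with Vcam1 0.47 and Cd44 with Cd9 0.38. Over all 28 pairs the median r was 0.14 and 19 were positive, against a median of -0.051 and 14 positive with median-ratio scaling.

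**Figure D3:**
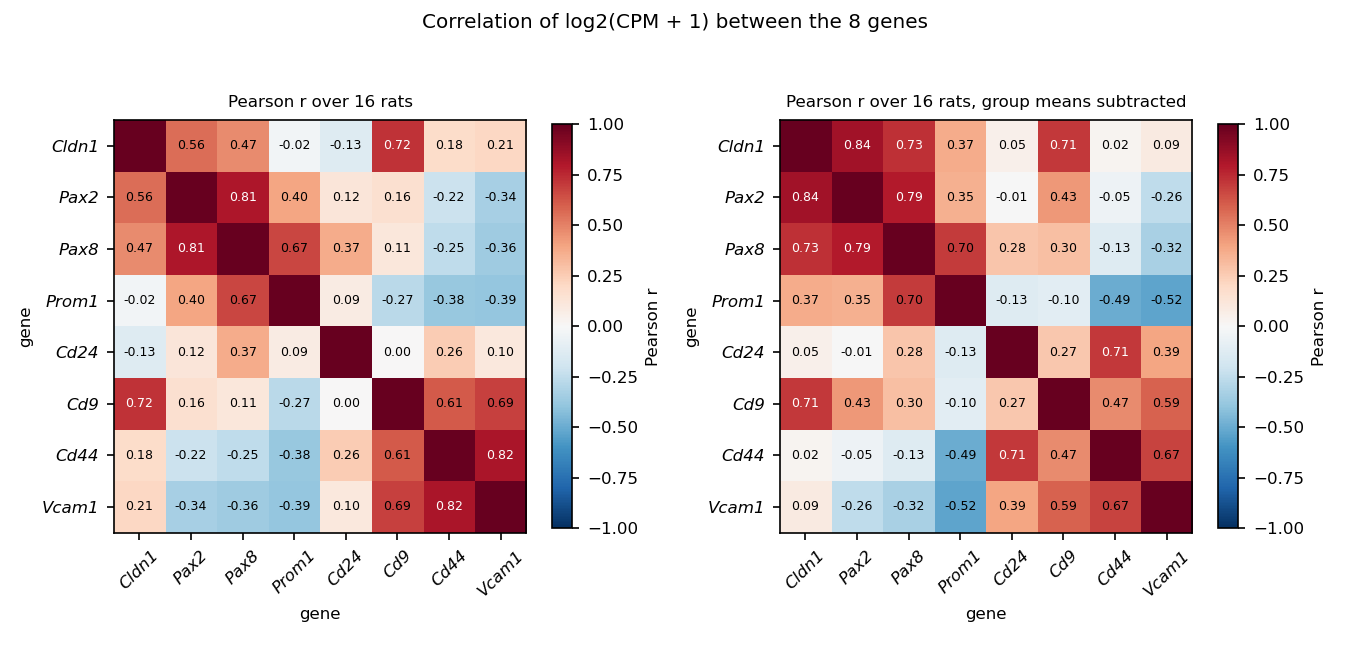
Pearson's r of log2(CPM + 1) for the 28 pairs of members over 16 rats (color scale from -1 to 1). Cd44 with Vcam1 (0.82), Pax2 with Pax8 (0.81) and Cldn1 with Cd9 (0.72) have the highest values, and the lowest is -0.39.

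Members were then set beside markers of other cell types in the same libraries, as 48 relations of 8 members with 6 marker lists. In 13 the adjusted permutation p was under 0.05. Cd9 tracked the mean of the podocyte markers most closely (r = 0.96, rho 0.91, adjusted permutation p = 0.00024, and 0.93 without 2 rats), and it did so after group means were subtracted (0.95) and with median-ratio scaling (0.94). Cldn1 tracked the same list (r = 0.85, rho 0.79, adjusted permutation p = 0.00024, and 0.80 without 2 rats). Cd44 tracked leukocyte markers (r = 0.91, rho 0.80, adjusted permutation p = 0.00024), with 0.75 once PAN rat 1 and pioglitazone rat 4 were left out. Vcam1 with leukocyte markers gave r = 0.76 (adjusted permutation p = 0.00542) and 0.49 without the same 2 rats. Its rho was 0.59, with an adjusted permutation p of 0.0696. Prom1 tracked proximal tubule markers (r = 0.84, rho 0.88, adjusted permutation p = 0.0008, and 0.85 without 2 rats), as did Pax8 (0.72, rho 0.71, adjusted permutation p = 0.00542, and 0.87 without 2 rats).

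Mesangial and smooth muscle markers ran with Cd9 (r = 0.90, adjusted permutation p = 0.00024), Vcam1 (0.81, adjusted p = 0.0008) and Cd44 (0.76, adjusted p = 0.00294). Pax8 ran against glomerular endothelial markers (r = -0.81, adjusted permutation p = 0.00171), a value of -0.45 with median-ratio scaling. In the 11 libraries numbered 15 or lower, Cd9 with podocyte markers gave 0.98, Cldn1 with podocyte markers 0.90, Prom1 with proximal tubule markers 0.93, Pax8 with proximal tubule markers 0.80, Cd44 with leukocyte markers 0.64 and Vcam1 with leukocyte markers 0.64. The remaining relations past the threshold were Cd44 with proximal tubule markers (-0.61, and -0.48 without 2 rats), Vcam1 with distal nephron markers (-0.67, and -0.62) and Pax2 with endothelial markers (-0.66, and -0.39, so that this value rests on those rats). By Spearman's rho the adjusted permutation p was 0.0696 for this Cd44 relation and 0.265 for this Pax2 relation. Pax8 with leukocyte markers passed by rho only (-0.65, adjusted permutation p = 0.0362). No relation of Cd24 passed. What part these cells have in the members' changes was not tested.

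**Figure D4:**
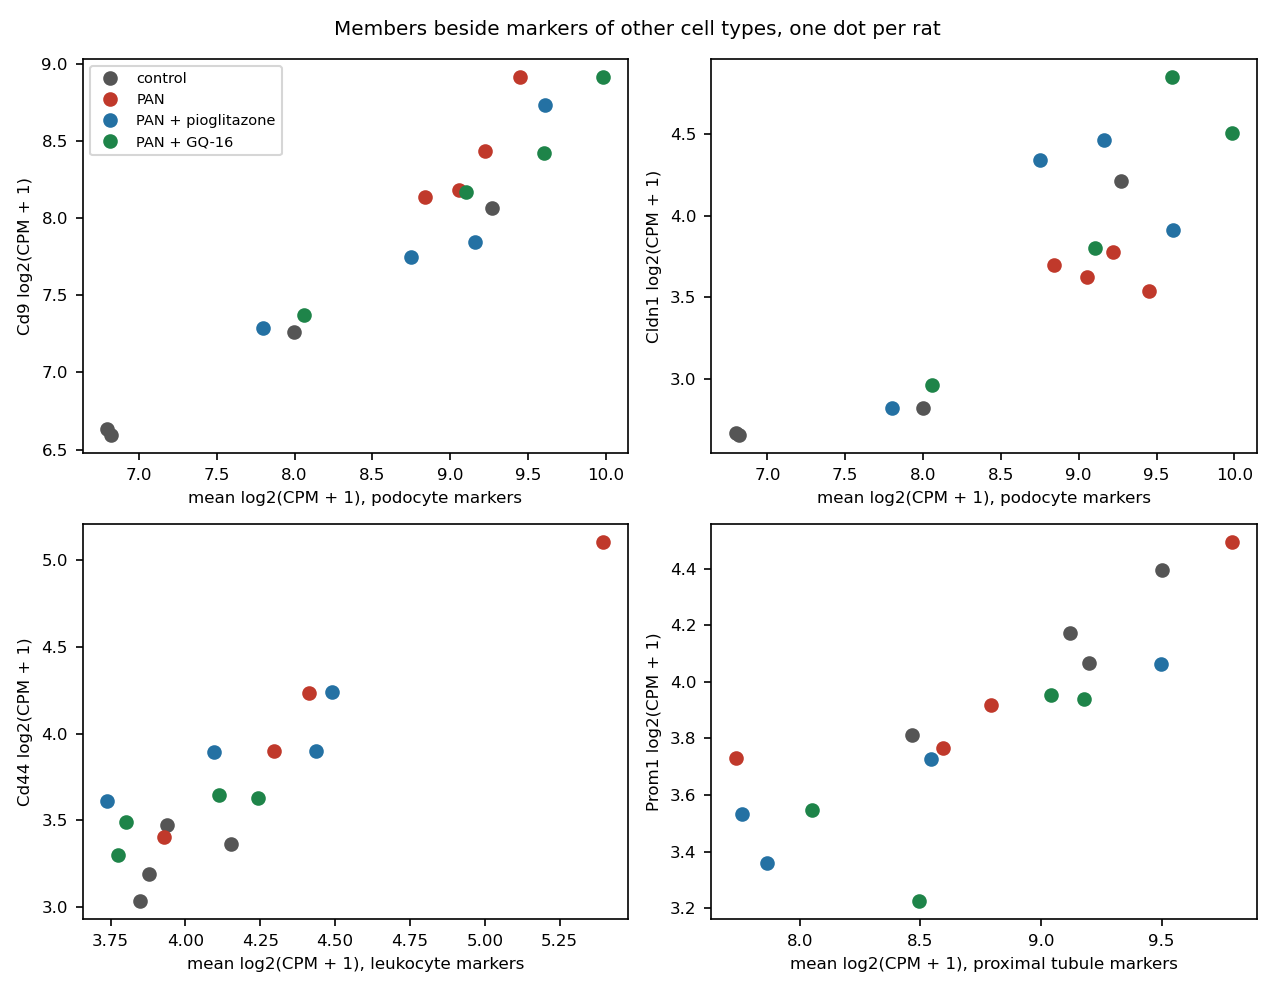
Members against the mean log2(CPM + 1) of markers of another cell type, each dot a rat, colored by group. Cd9 (r = 0.96) and Cldn1 (0.85) are set against podocyte markers, Cd44 (0.91) against leukocyte markers and Prom1 (0.84) against proximal tubule markers.

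The marker lists themselves are read against all genes in PAN rats, of which 21.7% were called higher, 0.522% lower and, with median-ratio scaling, 8.63% in either direction. Leukocyte genes were higher in PAN rats for 4 of 10: Csf1r (1.07), Adgre1 (1.04), Cd68 (1.01) and Lyz2 (0.83), but 0 of 10 with median-ratio scaling. Ptprc, the pan-leukocyte phosphatase, was 0.16 (limma, adjusted p = 0.573). With the leukocyte marker mean as a covariate, added after seeing the data, Cd44 was 0.36 (limma, adjusted p = 0.150) and Vcam1 0.48 (limma, adjusted p = 0.231). Mesangial and smooth muscle genes were higher for 8 of 9, among them Des (3.25), Tagln (3.21), Acta2 (2.72), Pdgfrb (1.61) and Itga8 (1.22), with sums of 373 to 1013 CPM in controls and 1902 to 3088 CPM in PAN rats. Which cells made these transcripts, Des among them, was not tested. Podocyte genes were higher for 3 of 10, including Tcf21 (2.18) and Wt1 (1.52), while Nphs1 was 1.199 (limma, adjusted p = 0.0939). All 10 podocyte changes were positive on both scalings. Their median was 1.42 (1.12 with median-ratio scaling) against 0.28 over all genes. Distal nephron genes were lower for 5 of 10, with Calb1 at -1.57, Slc12a3 at -1.15 and Atp6v1b1 at -1.10, and their sum was 1009 to 1741 CPM in controls and 539 to 1131 CPM in PAN rats. Umod was also called lower (-0.85) and Slc12a1 was -0.46 (limma, adjusted p = 0.0908). Proximal tubule genes gave 0 of 10 in either direction, with Lrp2 at -0.20 and Cubn at -0.31. None of these 10 changes was positive, where 83.3% of all genes were, and their median was -0.28 (-0.59 with median-ratio scaling) against 0.28. Endothelial genes were higher for 2 of 9, of which Plvap was 1.39, but 3 of 9 were positive and the median was -0.16 (-0.47 with median-ratio scaling). With median-ratio scaling, mesangial and smooth muscle genes gave 7 of 9 higher, podocyte genes 1 of 10, endothelial genes 1 of 9 and distal nephron genes 4 of 10 lower. Kdr was -0.28 (limma, adjusted p = 0.363).

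Other genes used to describe parietal cells gave 5 of 12 listed higher and 0 lower in PAN rats, where 21.7% and 0.522% of all genes were called in those directions, with a median of 0.27 against 0.28 over all genes. Lgals3, which encodes galectin-3 and is abundant in macrophages, rose by 1.48 (SE 0.409). Akap12, a kinase scaffold, rose by 0.82, and for both no PAN rat overlapped the controls, as for 22.4% of all genes in that direction. Aldh1a2 (1.10) and Ncam1 (1.06) also passed, with overlap. With median-ratio scaling only Ncam1 of these passed as higher, and Krt7, an epithelial keratin, as lower (-0.64, limma adjusted p = 0.0397). The actin-severing gene Scin was -0.21 (limma, adjusted p = 0.589). With pioglitazone, Akap12 (0.97), Aldh1a2 (1.29) and Ncam1 (1.196) were also above controls by limma's test, which called 4.98% of all genes in either direction. None of the 12 was called between either drug group and PAN alone, against 0% of all genes for pioglitazone and 0.0151% for GQ-16.

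Of 14 listed genes of hyaluronan handling and CD44 partners, 2 were higher in PAN rats, against 21.7% of all genes, and 0 lower. Mmp14, a membrane metalloproteinase that can cleave CD44, rose by 1.43 and Hmmr, a hyaluronan receptor also expressed with the mitotic spindle, by 1.34. Neither gene overlapped between PAN rats and controls, and both passed with median-ratio scaling too. Spp1, which encodes the CD44 ligand osteopontin, had a mean of 525 CPM in PAN rats and 34.0 CPM in controls, with a change of 1.95 that did not pass (limma, adjusted p = 0.134). The summed level of the whole list was 5502 CPM in PAN rat 1 and 3018 to 3610 CPM in the other PAN rats.

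Of 13 listed CD9 partners and tetraspanins, 6 were higher in PAN rats, and 12 of 13 changes were positive (9 with median-ratio scaling), where 21.7% of all genes were called higher and 83.3% were positive. Itgb1 (1.09) and Cd151 (0.98) rose without overlap between the groups. Itga3, the integrin chain that pairs with Itgb1 on podocytes, rose by 1.40, and Igsf8, Cd82 and Cd63 by 0.80, 0.64 and 0.64. The list's median was 0.64, and 0.33 with median-ratio scaling, under which 3 passed (Itga3, Itgb1 and Cd151).

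Of 11 listed adhesion and NF-κB genes, 2 were higher in PAN rats, against 21.7% of all genes, and the list's median was 0.24 against 0.28. They were Relb (0.84) and Nfkb2 (0.72), which encode subunits of the non-canonical NF-κB branch. Neither passed with median-ratio scaling. Icam1, another endothelial adhesion molecule, was 0.68 (limma, adjusted p = 0.0972). Among 14 listed tight junction genes 1 was higher, Cldn15 (1.42), against 21.7% of all genes, and 0 with median-ratio scaling. The 8 listed PAX partners and nephron specification genes gave 2 higher, Gata3 (1.08) and Paxip1 (0.34), and 1 lower, Emx2 (-0.56), against 21.7% and 0.522% of all genes. Of the 8, 3 were positive, and their median was -0.52 (-0.80 with median-ratio scaling) against 0.28. Gata3 and Emx2 passed with median-ratio scaling as well, and with pioglitazone they differed from controls in the same directions (1.12 and -0.76, limma). Of 7 listed progenitor and glycoprotein genes 1 was higher, Nes (2.31), which encodes the filament protein nestin and is also made by podocytes.

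Of 10709 genes with a symbol and a mean of at least 5 CPM, those closest to each member over the 16 rats were found by Pearson's r, as a description without a test. For Cd44 they were Unc93b1 (0.97) and Csf1r (0.96), and for Vcam1 Pros1 (0.95) and Pkm (0.94). For Cd9 they were Tmem128 (0.99) and Crlf2 (0.98), and for Cldn1 Sh3bgrl2 (0.95) and Bmpr1b (0.94). For Pax8 they were Src (0.92) and Igsf9 (0.90), and for Prom1 Rab11fip5 (0.95) and Sowahb (0.94). For Pax2 they were Aldh5a1 (0.85) and its fellow member Pax8 (0.81). Cd24 was closest to Entpd2 (0.87) and Wfdc2 (0.82).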

How the data were processed

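The authors deposited a table of log2 CPM values per gene for all 16 libraries. Per the submitters' processing notes, HISAT2, featureCounts (Subread) and limma were named with the genome build Rnor_6.0; no role, version or strand setting is given. The deposited log2 values had 0.5 read added, and whole reads could be recovered for 100% of values (tolerance 0.1 read). They were turned back into CPM, and limma 3.58.1 (R 4.3.3) with a mean-variance trend was fitted to log2(CPM + 1) of 13222 genes over all 16 libraries in 4 groups, with Benjamini-Hochberg adjustment over all genes and calls at 0.05. A log2 change on this scale understates that of low genes. Members had 60 to 9102 reads in a library; the intervals given are limma's, from the spread between rats, and the floor of 3 reads covers counting error only.

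Groups came from the labels. There were 6 comparisons. Exact permutation tests used 4 against 4 rats; correlations used 100000 permutations. The fit was tested on simulated data. All 8 members were named, with the 2 genes most correlated with each, and from 13 lists up to 4 called genes without overlap, up to 2 of lowest p where none passed, and the first 2 of each marker list; other genes were named after their values were seen, and some genes that the rule names are not reported here. Members and lists were chosen with earlier results of these data known. Alternatives were other scalings, pseudocount, filter, covariates, voom on the recovered reads and leaving out rats. No label says the rats of a group were handled separately, so p-values measure the spread between these libraries. Sequences came from RefSeq (GRCr8).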

Additional observations from a re-analysis of the deposited data

Results flagged for a closer look

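On the log2(CPM + 1) scale, across 32 sets of 4 rats (8 members in 4 groups), 2 held a rat whose gap to the nearest other rat, over the whole range, exceeded Dixon's 95% critical value; about 1.6 would be set apart by chance. Cldn1 in control rat 1 was 17.5 CPM, while the other controls had 5.29 to 6.05 CPM. Vcam1 in PAN rat 1 was 74.1 CPM, while the other PAN rats had 33.4 to 37.8 CPM. In CPM itself 3 sets were past that value, these 2 and Cd24 in PAN rats, where PAN rat 1 had 101 CPM. Control 1 also had the highest podocyte marker sum of the controls (9870 CPM), and PAN rat 1 the highest leukocyte marker sum of all 16 libraries (856 CPM); their part in these values was not tested.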

How the results depend on the processing

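The count of 3 members changed in PAN rats was 0 with median-ratio scaling, quantile normalization, voom on recovered reads, the library-number, mitochondrial-share, tubule-marker, leukocyte-marker or podocyte-marker covariate, and in libraries numbered 15 or lower, which hold 1 PAN rat. Leaving out 1 rat at a time gave 0 to 3. It stayed within 1.5 times with a pseudocount of 0.1, with only the 2 groups compared (2 members) and with a mean of at least 10 CPM, which removes Pax2. In GQ-16 against control the count of 0 went to 2 without control 1, with a range of 0 to 2, while genes called went from 20 to 1572, with a range of 0 to 1572; the other 4 comparisons stayed at 0 members under all alternatives run. Genes changed in PAN rats were 2943 on the deposited scale, with 2874 higher and 69 lower, 1141 with median-ratio scaling (941 and 200), 1128 with quantile normalization, 1047 with voom, 393 with library number, 243 with mitochondrial share, 1255 with tubule markers, 576 with leukocyte markers, 558 with podocyte markers, 1580 with 2 groups only, 79 in libraries numbered 15 or lower and 838 to 4964 with 1 rat left out. For pioglitazone against control 659 genes became 377 with median-ratio scaling, 398 with quantile normalization, 250 with voom, 51 with mitochondrial share, 12 with tubule markers, 1660 without control 1, 48 without control 2 and 48 to 1660 with any 1 rat left out. For GQ-16 against control 20 became 98 with median-ratio scaling, 116 with quantile normalization, 9 with tubule markers, 2 with podocyte markers and 144 in libraries numbered 15 or lower. For GQ-16 against PAN 2 genes became 0 with median-ratio scaling, 6 with tubule markers, 51 with podocyte markers and 0 to 9 with 1 rat left out. The leukocyte, podocyte and library-subset alternatives and the joint omission of control 1 and PAN rat 1 were chosen after seeing the data. The cause of these shifts was not tested.

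No member whose change had passed reversed its direction under the alternatives run. Among changes that had not passed, the sign turned as follows. For PAN against control, Prom1 became 0.041 without control 1 and PAN rat 1, 0.10 with leukocyte markers, 0.38 in libraries numbered 15 or lower, 0.29 with library number and 0.24 with tubule markers. Pax8 became 0.061, 0.046, 0.068 and 0.21 in the last 4 of these, in that order, Pax2 became 0.026 with tubule markers, and Cldn1 -0.46 with mitochondrial share and -0.40 with podocyte markers. For pioglitazone against PAN, Cd24 became 0.065 with leukocyte markers and 0.72 in libraries numbered 15 or lower, Cd44 0.059 and 0.40, and Pax2 0.029 with quantile normalization and 0.0048 with tubule markers. For GQ-16 against PAN, Pax2 became -0.11 with leukocyte markers and -0.011 in libraries numbered 15 or lower. Pax8 became -0.13, -0.061 and, with library number, -0.082, Cd44 0.12 in libraries numbered 15 or lower, and Cd9 0.20 with library number and 0.24 with mitochondrial share. For GQ-16 against pioglitazone, Cldn1 became -0.0055 in libraries numbered 15 or lower, -0.10 with podocyte markers and -0.11 with tubule markers. Prom1 became 0.038 in libraries numbered 15 or lower, 0.035 with median-ratio scaling, 0.0053 with mitochondrial share, 0.012 with quantile normalization and 0.017 with voom, and Vcam1 0.044 with tubule markers. For pioglitazone against control with tubule markers, Prom1 became 0.12, Pax2 0.031, Pax8 0.17 and Vcam1 -0.18. For GQ-16 against control with tubule markers, Cd44 became -0.086, Pax2 0.054, Pax8 0.21 and Vcam1 -0.14. Vcam1 was -0.015 with mitochondrial share and -0.064 with podocyte markers, and Cldn1 -0.061 with podocyte markers.

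With 1 rat left out at a time, changes that had not passed spanned 0 as follows. For pioglitazone against PAN the ranges were -0.58 to 0.32 for Cd24, -0.50 to 0.066 for Cd44, -0.25 to 0.21 for Pax2 and -0.40 to 0.029 for Pax8. For GQ-16 against PAN they were -0.27 to 0.63 for Cd24, -0.093 to 0.17 for Pax2, -0.43 to 0.082 for Cd9 and -0.041 to 0.18 for Pax8. For GQ-16 against pioglitazone they were -0.21 to 0.50 for Cldn1, -0.11 to 0.14 for Prom1 and -0.15 to 0.31 for Pax2. They were -0.45 to 0.0066 for Pax2 in pioglitazone against control and -0.18 to 0.056 for Pax8 in GQ-16 against control. No paired analysis was possible because the labels carry no replicate numbers shared between groups.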
